A study of Mus musculus with 6 samples.

Results

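A set of 35 genes of cholesterol synthesis, its control by sterols, the neighbouring fatty acid pathway and sterol efflux was followed in mouse retina after injection of titanium dioxide nanoparticles into the vitreous of the eye. The genes were listed by name for their part in these pathways, in knowledge of earlier results of these data, and are 35 of 26134 genes or names tested on 2-colour Agilent arrays. They were read by 48 probes (57 spots on each array), of which 47 passed the filter on dim probes. All 35 genes passed, and the probe used for each was clear of background in Cy5 and in Cy3 on all 6 arrays. The 3 groups were 10PTC (nanoparticles at 10 times the PTC amount), PTC (nanoparticles) and PBS, the control. The labels do not spell out PTC. All mice were male C57BL/6, injected in the right eye at 8 weeks of age, with 12 mice per group, and retinas were taken 7 days later. RNA came from pools of 4 retinas. Each array carried a treated pool labelled with Cy5 beside PBS retina labelled with Cy3, with 3 arrays at 10PTC and 3 at PTC. A value below is the log2 ratio of treated over PBS signal after loess normalization within the array, so that 0 means an equal signal, and positive values mean more signal in the treated pool. The dyes were not swapped, so any dye effect is part of every ratio, and the test of a ratio against 0 leaves out the spread among PBS pools. Arrays are numbered 1 to 3 within a dose.

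Cholesterol is built from acetyl-CoA by way of mevalonate, farnesyl diphosphate, squalene and a chain of sterols. When sterols in the endoplasmic reticulum run low, SCAP carries SREBP-2, the product of Srebf2, to the Golgi, where it is cut and released as a transcription factor for the genes of the pathway. When sterols are plentiful, INSIG proteins hold SCAP back, and oxysterols activate the LXR receptors, which turn on efflux genes such as Abca1. In the retina, neurons, Müller glia and pigment epithelium make and exchange sterols, and APOE carries them between cells.

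Srebf2, Insig2 and Hsd17b7 were each read by a pair of probes whose ratios differed in sign, so their targets are shown as the first 30 of 60 bases of each probe, 5′ to 3′ as the array files give them (mm9 positions of the whole probe).
Srebf2 A_51_P377508, chr15:82034765-82034824, plus strand: aactaggtctttgcaccagagagcattttg
Srebf2 A_55_P2000487, chr15:82030068-82030127, plus strand: atccagctgttcacctgtgacctgctactg
Insig2 A_51_P439452, chr1:123201085-123201144, minus strand: tatgtatacacaagcctaatggtagtagtg
Insig2 A_55_P1957624, chr1:123202133-123202192, minus strand: caatgtgccaaacgtgttactgacacagag
Hsd17b7 A_52_P566605, chr1:171880203-171880262, minus strand: tcagtcctcaataaggtcttcgatagttat
Hsd17b7 A_55_P1997936, chr1:171883182-171883241, minus strand: gaaaaattctatgaggtcttactggagctg
Both Srebf2 probes were assigned in the array files to the same RefSeq transcript, and they start 4697 bases apart in the genome. The Hsd17b7 probes also shared a transcript and start 2979 bases apart. The Insig2 probes, 1048 bases apart, were assigned to different transcripts. Which exons they lie in was not analysed here, since no annotation of that build was used.

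Windows at the start of the genes, from 250 bases before to 50 bases after the annotated start, were available from RefSeq (GRCm38.p6) for 27 of the 35 genes. The genes not matched were Abcg1, Fdps, Scd2, Fdft1, Stard4, Npc1, Sqle and Scd1. Factor NF-Y, which works beside SREBP at many sterol-regulated promoters, binds CCAAT. Among the 15 synthesis genes with a window, 14 held CCAAT on either strand (93.3%), against 6241 of 14859 genes tested on the arrays (42.0%). The Sp1 box GGGCGG was also in 14 of the 15 (93.3%), against 8416 of those 14859 genes (56.6%). The core of the classical sterol regulatory element, TCACNCCAC, was found only in Hmgcs1 among the 27, and in 209 of the 14859 (1.4%). The E-box CACGTG was in 6 of the 27 members (22.2%) and in 1485 of the 14859 (10.0%). CCAAT was held by 6 of 6 synthesis genes that were lower at both doses and by 8 of 9 of the other synthesis genes. A match is only a run of letters, and these shares are descriptions. The 150 bases before the start of 5 genes are shown. In the results below, Hmgcs1, Mvk and Insig1 fell, Abca1 rose, and Srebf2 differed by probe. Capitals mark TCACNCCAC, CCAAT and CACGTG on either strand.
Hmgcs1, chr13:119690201-119690350, plus strand: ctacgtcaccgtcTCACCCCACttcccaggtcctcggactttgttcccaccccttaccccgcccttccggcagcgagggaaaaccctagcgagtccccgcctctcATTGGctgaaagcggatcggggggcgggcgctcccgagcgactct
Mvk, chr5:114444119-114444268, plus strand: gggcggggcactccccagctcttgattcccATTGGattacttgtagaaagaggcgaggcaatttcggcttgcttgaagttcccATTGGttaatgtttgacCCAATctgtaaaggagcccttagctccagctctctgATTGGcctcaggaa
Srebf2, chr15:82147119-82147268, plus strand: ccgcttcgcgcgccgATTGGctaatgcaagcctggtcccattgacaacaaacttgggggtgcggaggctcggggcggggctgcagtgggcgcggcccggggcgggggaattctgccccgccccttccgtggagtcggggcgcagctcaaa
Insig1, chr5:28071262-28071411, plus strand: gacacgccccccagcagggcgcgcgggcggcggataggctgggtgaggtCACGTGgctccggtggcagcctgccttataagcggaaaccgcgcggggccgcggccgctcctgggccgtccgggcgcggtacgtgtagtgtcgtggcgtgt
Abca1, chr4:53159896-53160045, minus strand: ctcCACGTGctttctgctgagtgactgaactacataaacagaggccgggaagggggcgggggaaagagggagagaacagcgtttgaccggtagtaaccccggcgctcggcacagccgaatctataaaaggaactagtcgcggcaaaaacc
Hmgcs1 holds the sterol element core 137 bases before the start, with a CCAAT box nearer the start. Mvk holds 4 CCAAT boxes in this stretch. Abca1 and Insig1 hold none in it, though Insig1 has a match further out, at -216 bases from the start.

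**Figure D1:**
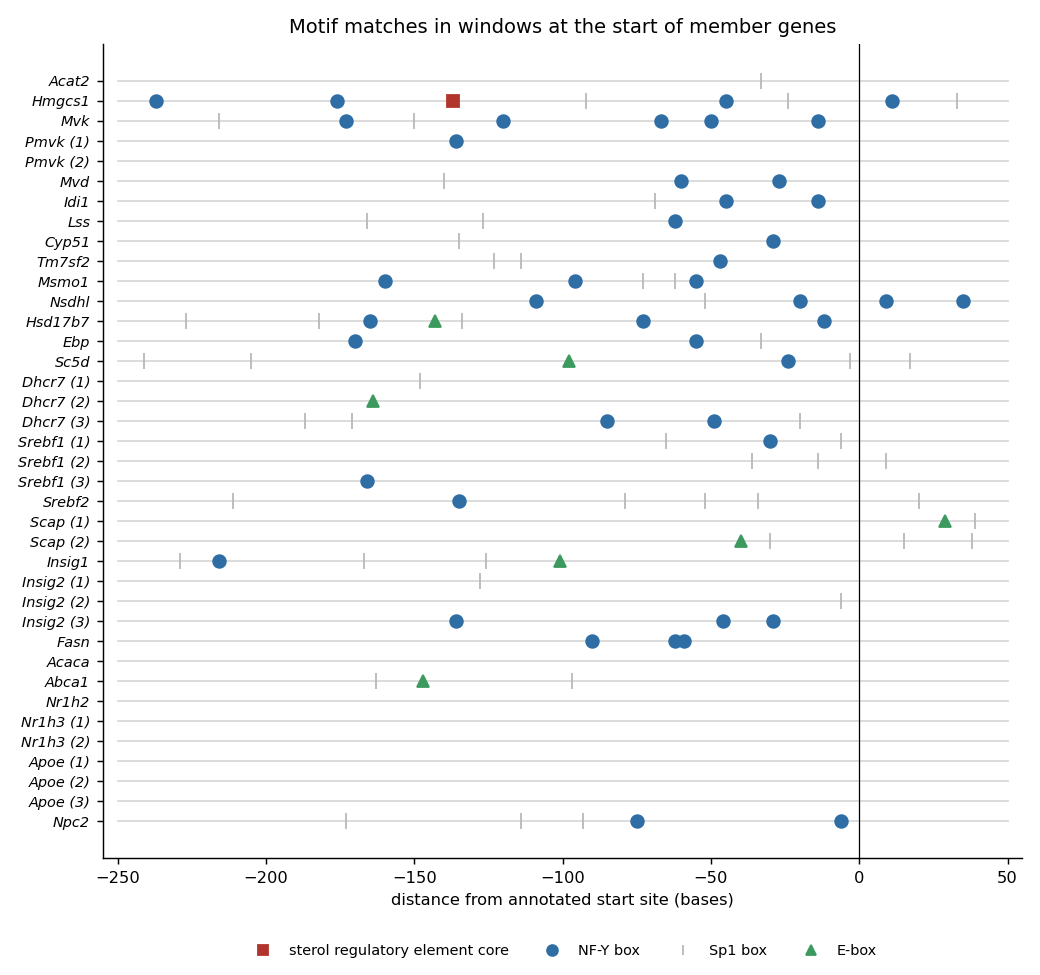
Motif matches on either strand in the start windows of the 27 member genes with a RefSeq window; each row is 1 annotated start (38 rows, numbered where a gene has several), and the x axis gives the distance from the start in bases. Squares are TCACNCCAC, circles CCAAT, triangles CACGTG and grey ticks GGGCGG; circles fall on nearly every synthesis gene from Hmgcs1 to Dhcr7, and the single square is in Hmgcs1.

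Of 18 genes of cholesterol synthesis, 8 fell in treated retina at both doses, and 2 genes of sterol efflux, Abca1 and Apoe, rose. When each array was centred on its median in place of loess, 3 of the 18 were lower at 10PTC and 6 at PTC. Under that centring 14634 of all 26134 genes had an adjusted p under 0.05 by limma at 10PTC, in either direction, against 7231 under loess. The share of all genes lower alone under that centring is not given here, so the counts of 3 and 6 have no share beside them. Of the 35 genes, 18 passed an adjusted p of 0.05 at 10PTC (5 higher, 13 lower), where 27.7% of all genes passed (14.4% higher, 13.3% lower). At PTC 20 passed (5 higher, 15 lower), where 33.1% of all genes passed (16.9% higher, 16.3% lower). Both doses shared 13 of the lower genes (Hmgcs1, Mvk, Idi1, Fdps, Sqle, Msmo1, Hsd17b7, Dhcr7, Srebf2, Insig1, Scd1, Nr1h2 and Stard4) and 4 of the higher ones (Insig2, Abca1, Apoe and Npc1). Of all 26134 genes tested, 2410 were lower and 2775 higher at both doses. The 4 higher members of 35 were thus close to the share of all genes. Each gene was read here by its brightest probe, and on the mean of their probes Hsd17b7, Srebf2 and Insig2 passed at neither dose. Pmvk passed at 10PTC alone, Mvd, Fasn and Npc2 at PTC alone, and the remaining 14 genes at neither dose. On all 6 arrays 17 members were below 0 and 6 above. The 2 doses are set against the same kind of PBS control, so they are not separate evidence for a gene.

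These counts changed when single arrays were left out and when the slide entered the fit. Without 10PTC array 1, 5 members passed at 10PTC, and without 10PTC array 3, 7 passed, none of them a lower synthesis gene in either case; 8 synthesis genes were then lower at an unadjusted p under 0.05 with limma in both cases. At PTC, leaving out 1 array left 16 to 23 members. PTC arrays 1 and 2 were on one slide and the other 4 on another. Within the slide of 4 arrays, 22 members passed at 10PTC and 7 at PTC, where a lone array is assumed to vary like the others. Within the slide of 2 PTC arrays, 0 passed by limma (17 at an unadjusted p under 0.05). With the slide as a block, 3 members passed at 10PTC (Srebf2, Scd1 and Apoe) and 17 at PTC. No 10PTC array was on the slide of 2, so that fit drew the slide effect from PTC arrays alone. Its error adds to that of the 10PTC values. An effect of the slide therefore cannot be told apart from this loss of precision, or from fewer arrays in the fits above.

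**Figure D2:**
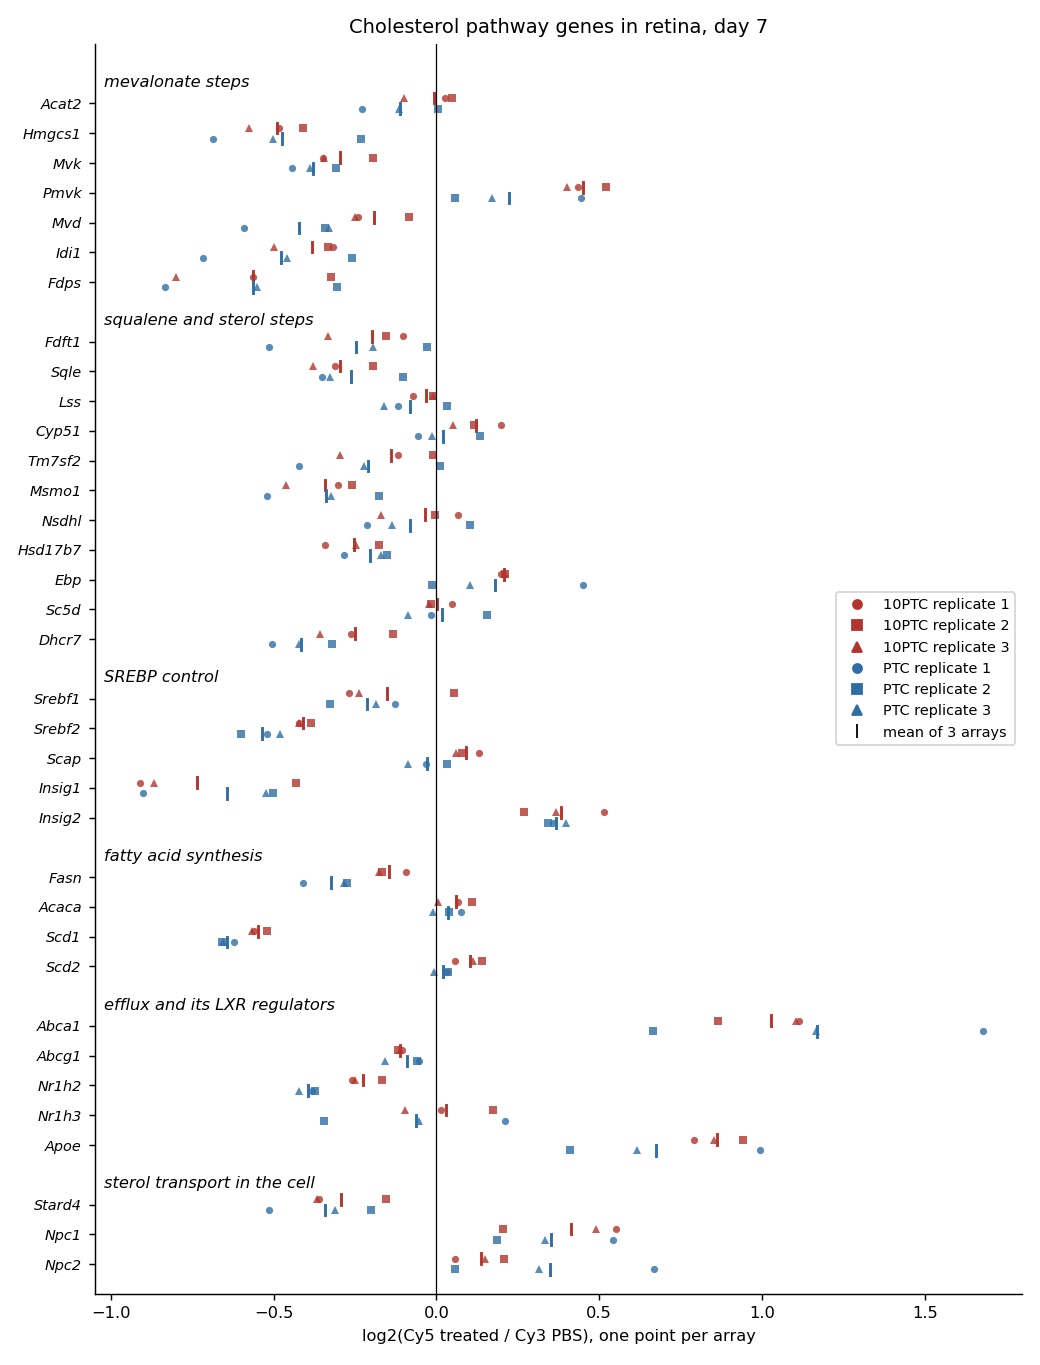
Log2 ratio of treated (Cy5) over PBS (Cy3) signal of the 35 genes on each array, grouped by role; 10PTC arrays are red and PTC arrays blue, marker shapes give the replicate, and vertical bars are means of 3 arrays. Most synthesis genes lie left of 0, Abca1 and Apoe lie right of 0 on all 6 arrays, and Pmvk lies right of 0 among its neighbours.

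In the mevalonate part of the pathway, 4 of 7 genes fell at 10PTC and 5 of 7 at PTC, beside 13.3% and 16.3% of all genes. The medians of the 7 were -0.30 and -0.42 (log2), against -0.00044 and -0.00076 for all genes tested. Hmgcs1, which makes HMG-CoA and so feeds mevalonate synthesis, stood at -0.48, -0.41 and -0.57 on the 10PTC arrays and -0.69, -0.23 and -0.50 on the PTC arrays. It averaged -0.49 ± 0.083 at 10PTC (adjusted p = 0.00716) and -0.47 ± 0.23 at PTC (adjusted p = 0.00604) (SD, n = 3 arrays each, here and below), or 71.3% and 72% of the PBS signal. All 6 values were below 0, and PTC array 2 was the mildest. Mvk, mevalonate kinase, was also below 0 on all 6 arrays, at -0.35, -0.19 and -0.35 on the 10PTC arrays and -0.44, -0.31 and -0.39 on the PTC arrays. Its means were -0.30 ± 0.089 at 10PTC (adjusted p = 0.00751) and -0.38 ± 0.068 at PTC (adjusted p = 0.00266), and its other probe was lower too. Mvd, the decarboxylase that yields isopentenyl diphosphate, gave -0.24, -0.085 and -0.25 on the 10PTC arrays and -0.59, -0.34 and -0.33 on the PTC arrays. It fell at PTC, with a mean of -0.42 ± 0.15 (adjusted p = 0.00404), while the 10PTC mean of -0.19 ± 0.093 missed the threshold (adjusted p = 0.0622).

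Idi1, the isomerase that turns isopentenyl into dimethylallyl diphosphate, gave -0.32, -0.33 and -0.50 on the 10PTC arrays and -0.72, -0.26 and -0.46 on the PTC arrays. It fell at both doses, with means of -0.38 ± 0.10 at 10PTC (adjusted p = 0.0165) and -0.48 ± 0.23 at PTC (adjusted p = 0.00631). Fdps, farnesyl diphosphate synthase, had the lowest mean of the 18 synthesis genes at each dose, -0.56 ± 0.24 at 10PTC (adjusted p = 0.0128) and -0.56 ± 0.26 at PTC (adjusted p = 0.00986). Its arrays read -0.56, -0.32 and -0.80 on the 10PTC arrays and -0.83, -0.30 and -0.55 on the PTC arrays, so that the arrays of each dose spread widely while all stayed below 0. Pmvk, phosphomevalonate kinase, went the other way, at 0.43, 0.52 and 0.40 on the 10PTC arrays and 0.44, 0.056 and 0.17 on the PTC arrays. It rose at 10PTC, to 137% of PBS, with means of 0.45 ± 0.062 at 10PTC (adjusted p = 0.00634) and 0.22 ± 0.20 at PTC (adjusted p = 0.0509), and both of its probes were above 0 at both doses. Acat2, the cytosolic thiolase at the head of the pathway, passed at neither dose (-0.0087 at 10PTC and -0.11 at PTC).

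Of the 11 genes that carry farnesyl diphosphate on to cholesterol, 4 fell at both doses and 7 passed at neither. Of all 26134 genes, 2410 were lower at both doses. The medians of the 11 were -0.14 at 10PTC and -0.20 at PTC. Sqle, squalene epoxidase and a control point of the pathway, stood at -0.31, -0.20 and -0.38 on the 10PTC arrays and -0.35, -0.10 and -0.33 on the PTC arrays. Its means were -0.30 ± 0.094 at 10PTC (adjusted p = 0.0147) and -0.26 ± 0.14 at PTC (adjusted p = 0.0181). Msmo1 (Sc4mol in the array files), the oxidase that removes methyl groups from sterols, read -0.30, -0.26 and -0.46 on the 10PTC arrays and -0.52, -0.18 and -0.32 on the PTC arrays. Every Msmo1 value was below 0, and the means were -0.34 ± 0.11 at 10PTC (adjusted p = 0.0143) and -0.34 ± 0.17 at PTC (adjusted p = 0.0113). Dhcr7, the reductase of the last step to cholesterol, gave -0.26, -0.13 and -0.36 on the 10PTC arrays and -0.51, -0.32 and -0.42 on the PTC arrays. Dhcr7 fell to 84.1% of PBS at 10PTC and 74.9% at PTC, with means of -0.25 ± 0.11 at 10PTC (adjusted p = 0.0194) and -0.42 ± 0.092 at PTC (adjusted p = 0.00301).

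Hsd17b7, a sterol ketone reductase, depended on the probe. Its brighter probe A_52_P566605 gave -0.34, -0.18 and -0.25 on the 10PTC arrays and -0.29, -0.15 and -0.17 on the PTC arrays, and it fell with means of -0.25 ± 0.083 at 10PTC (adjusted p = 0.012) and -0.20 ± 0.072 at PTC (adjusted p = 0.02). The dimmer probe A_55_P1997936 stood at 0.054, -0.10 and 0.053 on the 10PTC arrays and -0.033, 0.14 and 0.089 on the PTC arrays, around 0. Averaged over both probes, Hsd17b7 passed at neither dose, at -0.13 (adjusted p = 0.0721) at 10PTC and -0.069 (adjusted p = 0.265) at PTC. The 7 sterol genes that passed at neither dose had means from -0.20 (Fdft1, squalene synthase) to 0.21 (Ebp, a sterol isomerase) at 10PTC, and from -0.25 (Fdft1) to 0.18 (Ebp) at PTC. Cyp51, the lanosterol demethylase, was at 0.12 and 0.021, Lss, lanosterol synthase, at -0.031 and -0.082, and Tm7sf2, a sterol reductase, at -0.14 and -0.21, at 10PTC and PTC in that order. Nsdhl, a sterol dehydrogenase, was at -0.036 at 10PTC and -0.082 at PTC, and Sc5d, a sterol desaturase, was at 0.0032 and 0.017.

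Among the 5 genes that control SREBP, Insig1 fell at both doses. By their brightest probes Srebf2 was lower and Insig2 higher at both doses, but neither passed on the mean of its probes. Insig1, which holds SCAP in the endoplasmic reticulum and is itself a target of SREBP, stood at -0.91, -0.43 and -0.87 on the 10PTC arrays and -0.90, -0.50 and -0.52 on the PTC arrays. It fell to 60% of PBS at 10PTC and 64.1% at PTC, with means of -0.74 ± 0.26 at 10PTC (adjusted p = 0.00513) and -0.64 ± 0.22 at PTC (adjusted p = 0.00592). No other member had a lower mean at 10PTC. Srebf1, which encodes the SREBP that drives fatty acid genes, passed at neither dose, at -0.15 (adjusted p = 0.155) and -0.21 (adjusted p = 0.057). Scap, the sterol sensor that escorts SREBP, was at 0.09 at 10PTC and -0.029 at PTC and did not pass either.

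Srebf2 gave opposite readings with its 2 probes. The brighter probe, A_51_P377508, was lower on all 6 arrays, at -0.42, -0.38 and -0.42 on the 10PTC arrays and -0.52, -0.60 and -0.48 on the PTC arrays. Its means were -0.41 ± 0.022 at 10PTC (adjusted p = 0.00167) and -0.53 ± 0.06 at PTC (adjusted p = 0.000784). The dimmer probe, A_55_P2000487, was above 0 on all 6 arrays, at 0.13, 0.26 and 0.46 on the 10PTC arrays and 1.02, 0.13 and 0.33 on the PTC arrays. With every probe fitted on its own, that probe averaged 0.28 at 10PTC (adjusted p = 0.196) and rose at PTC, by 0.49 (adjusted p = 0.041), where PTC array 1 was far above the other arrays. The 2 readings lay on opposite sides of 0 on every array, and averaging them left Srebf2 at -0.063 (adjusted p = 0.613) at 10PTC and -0.021 (adjusted p = 0.872) at PTC. Thus a direction for Srebf2 as a gene is not settled by these probes, and the cause of the disagreement was not tested.

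Insig2, the other INSIG protein, likewise differed by probe. Probe A_51_P439452 rose, at 0.52, 0.27 and 0.37 on the 10PTC arrays and 0.36, 0.34 and 0.40 on the PTC arrays, with means of 0.38 ± 0.12 at 10PTC (adjusted p = 0.00417) and 0.37 ± 0.028 at PTC (adjusted p = 0.00354). Probe A_55_P1957624, assigned to another transcript, read -0.35, -0.23 and -0.14 on the 10PTC arrays and 0.078, -0.24 and -0.11 on the PTC arrays. In the fit of every probe it was lower at 10PTC (-0.24, adjusted p = 0.0384) and did not pass at PTC (-0.093, adjusted p = 0.327). The mean of both probes passed at neither dose (0.072, adjusted p = 0.277 at 10PTC, and 0.14, adjusted p = 0.0588 at PTC). Of 10 member genes with several probes that passed the filter, these 3 were the ones whose probes differed in sign, at each dose. The other members had a single probe that passed, so their direction could not be compared between probes. Among the genes lower at both doses, only Mvk had another passing probe of the same sign.

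**Figure D3:**
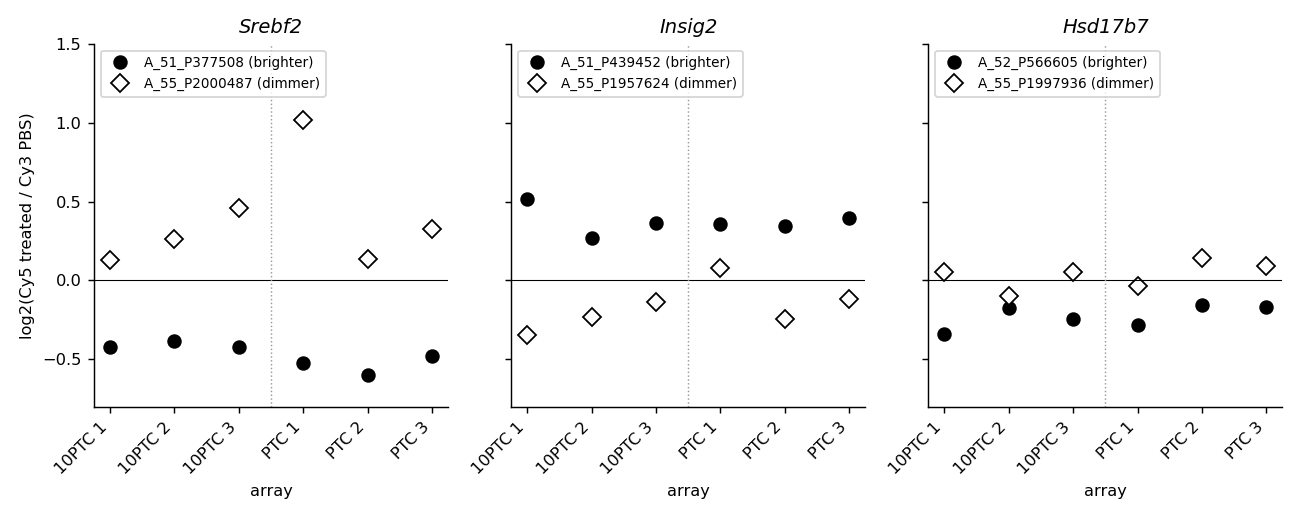
Log2 ratio of treated over PBS on each array for the probe pairs of Srebf2, Insig2 and Hsd17b7; filled circles are the brighter probe, open diamonds the dimmer one, and a dotted line separates the 10PTC arrays from the PTC arrays. The Srebf2 circles lie between -0.60 and -0.38 and its diamonds between 0.13 and 1.02, and the Insig2 pair lies the other way round.

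Of 4 fatty acid genes, Scd1 fell at both doses and Fasn at PTC. That is 1 of 4 lower at 10PTC and 2 at PTC, beside 13.3% and 16.3% of all genes. The medians of the 4 were -0.043 at 10PTC and -0.15 at PTC. Scd1, the desaturase that makes monounsaturated fatty acids, had -0.56, -0.52 and -0.57 on the 10PTC arrays and -0.62, -0.66 and -0.66 on the PTC arrays. The arrays of each dose agreed closely, and Scd1 averaged -0.55 ± 0.025 at 10PTC (adjusted p = 0.000717) and -0.64 ± 0.02 at PTC (adjusted p = 0.000291), or 68.4% and 64% of PBS. Scd2, the related desaturase, was at 0.10 and 0.021 and passed at neither dose. Fasn, fatty acid synthase, stood at -0.094, -0.17 and -0.18 on the 10PTC arrays and -0.41, -0.27 and -0.28 on the PTC arrays. It fell at PTC, with a mean of -0.32 ± 0.076 (adjusted p = 0.00327), and at 10PTC its mean of -0.15 ± 0.045 was just outside the threshold (adjusted p = 0.0513). Acaca, which makes malonyl-CoA for Fasn, was read by 4 probes, all between 0.039 and 0.10 at 10PTC and between 0.026 and 0.12 at PTC, and did not pass.

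The efflux genes split. Abca1, the transporter that loads cholesterol onto apolipoproteins, stood at 1.11, 0.86 and 1.10 on the 10PTC arrays and 1.68, 0.67 and 1.17 on the PTC arrays. It rose 2.04-fold at 10PTC and 2.25-fold at PTC, the largest rise of the 35 genes at each dose, with means of 1.03 ± 0.14 at 10PTC (adjusted p = 0.00593) and 1.17 ± 0.51 at PTC (adjusted p = 0.00302). PTC array 1 was highest and PTC array 2 lowest. Apoe, the lipoprotein component that carries cholesterol between retinal and brain cells, stood at 0.79, 0.94 and 0.85 on the 10PTC arrays and 0.99, 0.41 and 0.62 on the PTC arrays. It rose 1.82-fold and 1.6-fold, with means of 0.86 ± 0.076 at 10PTC (adjusted p = 0.00238) and 0.67 ± 0.30 at PTC (adjusted p = 0.00354). Its probe was printed 10 times on each array, and the 10 spots had an SD of 0.014 to 0.034 (log2) within an array. Abcg1, another sterol exporter, did not follow, at -0.11 at 10PTC (adjusted p = 0.0858) and -0.089 at PTC (adjusted p = 0.137).

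Nr1h2, which encodes LXR beta, fell at both doses. It read -0.26, -0.17 and -0.25 on the 10PTC arrays and -0.38, -0.37 and -0.42 on the PTC arrays, with means of -0.23 ± 0.051 at 10PTC (adjusted p = 0.00958) and -0.39 ± 0.026 at PTC (adjusted p = 0.00133). Under median centring its 10PTC value was 0.019 (adjusted p = 0.716), so neither the call nor the direction at 10PTC held there. Nr1h3, LXR alpha, had means of 0.03 at 10PTC and -0.062 at PTC, crossed 0 among the arrays of both doses and did not pass. The median of the 5 efflux genes was therefore near 0, 0.03 at 10PTC and -0.062 at PTC, with 2 genes higher, 1 lower and 2 that did not pass at each dose. Of all genes, 14.4% were higher and 13.3% lower at 10PTC, and 16.9% and 16.3% at PTC. Counts among 5 genes thus say little about efflux as a group.

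The 3 genes of sterol transport inside the cell also diverged. Stard4, which moves sterol between membranes and is a target of SREBP-2, stood at -0.36, -0.15 and -0.37 on the 10PTC arrays and -0.51, -0.20 and -0.31 on the PTC arrays. It fell, with means of -0.29 ± 0.12 at 10PTC (adjusted p = 0.0222) and -0.34 ± 0.16 at PTC (adjusted p = 0.0107). Npc1, the protein that exports cholesterol from lysosomes, was above 0 on every array, at 0.55, 0.20 and 0.49 on the 10PTC arrays and 0.54, 0.19 and 0.33 on the PTC arrays. Npc1 rose with means of 0.41 ± 0.19 at 10PTC (adjusted p = 0.0139) and 0.35 ± 0.18 at PTC (adjusted p = 0.0191). Npc2, its soluble partner in the lysosome, gave 0.056, 0.21 and 0.15 on the 10PTC arrays and 0.67, 0.057 and 0.32 on the PTC arrays. Npc2 rose at PTC, with a mean of 0.35 ± 0.31 (adjusted p = 0.0365) carried mainly by PTC array 1, and did not pass at 10PTC (0.14 ± 0.076, adjusted p = 0.344).

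Set side by side, the medians of the 18 synthesis genes were -0.19 at 10PTC and -0.23 at PTC. Of these, 8 were lower and 1 higher at 10PTC, and 9 were lower and 0 higher at PTC, when 13.3% and 16.3% of all genes were lower. The median of the synthesis genes was below 0 on every array, at -0.18, -0.11 and -0.27 on the 10PTC arrays and -0.39, -0.066 and -0.21 on the PTC arrays. Array PTC 1 gave the lowest median and PTC 2 the highest, both on the slide of 2 arrays. The fatty acid genes had medians between -0.19 and -0.018 over the 6 arrays, and the efflux genes between -0.096 and 0.21.

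**Figure D4:**
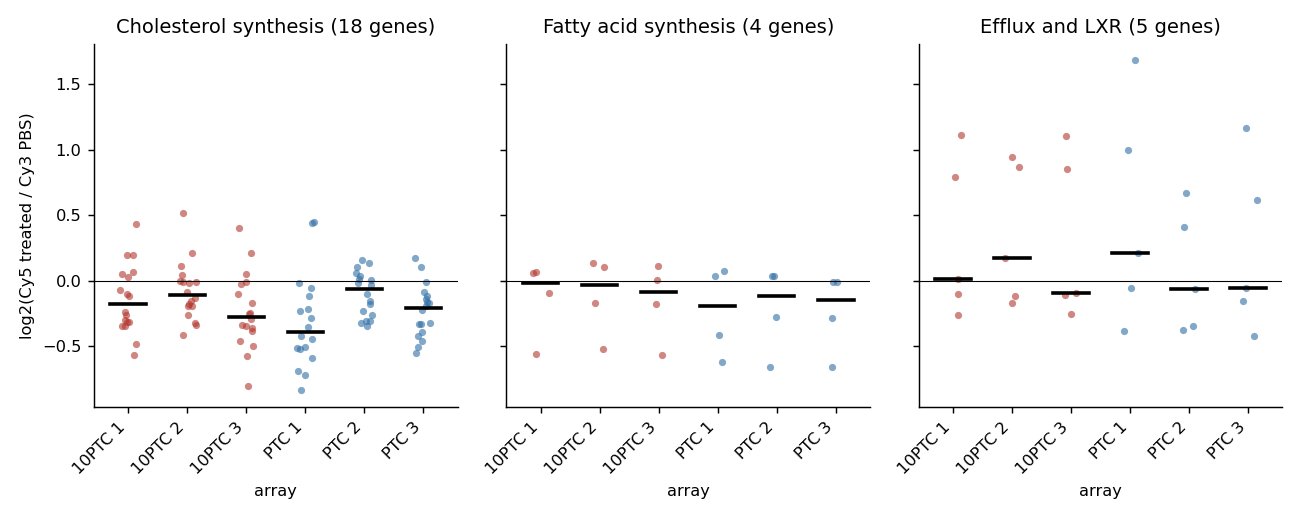
Log2 ratio of treated over PBS by array for the 18 cholesterol synthesis genes, the 4 fatty acid genes and the 5 efflux and LXR genes; each point is a gene and black bars are medians, with 10PTC arrays in red and PTC arrays in blue. The synthesis medians lie between -0.39 and -0.066, and the 2 highest points of the efflux panel on each array are Abca1 and Apoe.

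The size of the synthesis result, and for some genes its direction, depended on how the channels were balanced. Loess sets the ratio to 0 on average at each level of brightness, while centring each array on its median does not. Under median centring the median of all genes was 0.076 at 10PTC and 0.048 at PTC. In the quartile of brightest genes, which held 8 of the 18 synthesis genes, the median of all genes was then 0.25 at 10PTC and 0.18 at PTC, and the median of those 8 synthesis genes was -0.088 and -0.20; under loess the 8 stood at -0.32 and -0.36. Over all 18, the synthesis median under median centring was 0.012 at 10PTC and -0.080 at PTC, which is -0.064 and -0.13 relative to all genes. The split of members then became 12 higher and 6 lower at 10PTC and 11 higher and 11 lower at PTC. At 10PTC 14634 of all 26134 genes then passed in either direction, so the 18 members that passed were no more than that share. At PTC 14679 genes and 24 members had an unadjusted p under 0.05 by limma. Among synthesis genes 3 remained lower at 10PTC (Hmgcs1, Fdps and Hsd17b7) and 6 at PTC (Hmgcs1, Mvk, Mvd, Idi1, Fdps and Dhcr7). Neither these counts nor the split of members was set beside a share of all genes by direction under that centring. Hmgcs1, Fdps, Insig1, Scd1 and the brighter Srebf2 probe stayed lower, and Abca1, Apoe, Insig2 (probe A_51_P439452) and Npc1 stayed higher, at both doses under either balancing.

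**Figure D5:**
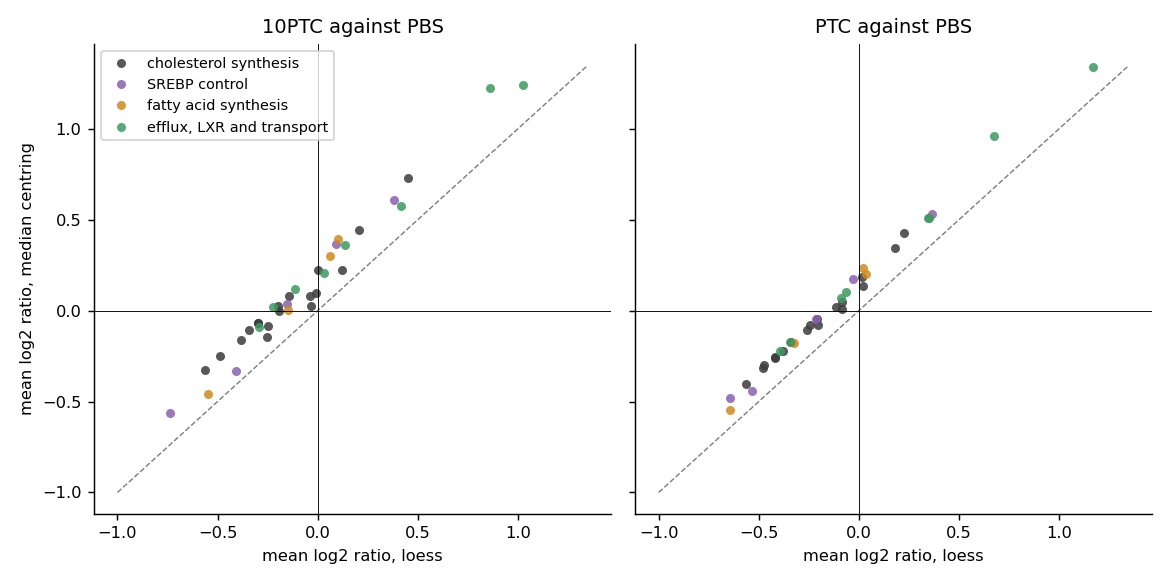
Mean log2 ratio of each of the 35 genes under loess (x axis) against median centring (y axis), at 10PTC on the left and PTC on the right; the dashed line marks equal values. Nearly all points lie above the line, so that genes near -0.2 under loess fall around 0 under median centring, while Insig1, Scd1, Abca1 and Apoe keep their side.

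No difference between the 2 amounts of nanoparticles was detectable for these genes. No member, and 0 of 26134 genes, differed between 10PTC and PTC in limma's test (smallest adjusted p among members 0.581; 2130 genes or 8.15%, and 3 members, had an unadjusted p under 0.05). Those 3 were Nr1h2, Fasn and Mvd, each of which was less low at 10PTC. The difference of 10PTC minus PTC was 0.17 for Nr1h2 (95% interval 0.031 to 0.30), 0.18 for Fasn (0.025 to 0.33) and 0.23 for Mvd (0.015 to 0.44). For Abca1 the interval ran from -0.68 to 0.39 and for Hmgcs1 from -0.29 to 0.26, so that sizeable differences either way were not within reach of 3 arrays per dose. The difference compares arrays that each carried a PBS channel, and PTC arrays 1 and 2 were on the other slide.

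Further genes of the same pathways, listed by role, were counted by the same threshold, which 27.7% of all genes passed at 10PTC and 33.1% at PTC. Shares near these are no result about a list. Of 10 other genes of synthesis and uptake, 4 were lower at 10PTC and 3 at PTC, and none higher; one of them, Acss2, which makes acetyl-CoA from acetate, had -0.15 at 10PTC (adjusted p = 0.0355) and -0.22 at PTC (adjusted p = 0.00922). Of 9 other SREBP control genes, 2 were higher at each dose, with 0 lower at 10PTC and 1 at PTC. These were Erlin2 (0.25 at 10PTC (adjusted p = 0.0103) and 0.32 at PTC (adjusted p = 0.00343)), an endoplasmic reticulum protein that helps destroy sterol-regulated proteins, and Rnf139 (0.19 at 10PTC (adjusted p = 0.0217) and 0.16 at PTC (adjusted p = 0.0298)), a ubiquitin ligase of the same membrane. Of 10 other fatty acid genes, 2 were higher and 3 lower at 10PTC, and 2 higher and 4 lower at PTC. Acacb, the acetyl-CoA carboxylase of mitochondria, had -0.54 at 10PTC (adjusted p = 0.0043) and -0.54 at PTC (adjusted p = 0.00318). Thrsp, a lipogenic regulator, had -0.30 at 10PTC (adjusted p = 0.00988) and -0.33 at PTC (adjusted p = 0.00592), and Mid1ip1, which promotes assembly of acetyl-CoA carboxylase, had -0.22 at 10PTC (adjusted p = 0.0107) and -0.17 at PTC (adjusted p = 0.0206). Me1, the malic enzyme that supplies NADPH, was higher, with 0.16 at 10PTC (adjusted p = 0.0261) and 0.37 at PTC (adjusted p = 0.00154).

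Among 19 other genes of efflux, esterification and oxysterols, 2 were higher and 5 lower at 10PTC, and 2 higher and 3 lower at PTC, again beside 27.7% and 33.1% of all genes passing in either direction. Ch25h, which makes an oxysterol that acts on LXR and on INSIG and is known for its induction in macrophages, stood at 1.40, 0.98 and 0.68 on the 10PTC arrays and 1.05, 0.49 and 0.91 on the PTC arrays. Its means were 1.02 at 10PTC (adjusted p = 0.00429) and 0.82 at PTC (adjusted p = 0.00652). Mylip, an LXR target that marks lipoprotein receptors for destruction, had 0.33 at 10PTC (adjusted p = 0.00552) and 0.22 at PTC (adjusted p = 0.0152). Abca7, a relative of Abca1, went the opposite way, with -0.24 at 10PTC (adjusted p = 0.0169) and -0.42 at PTC (adjusted p = 0.00233).

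Some lists of markers of other cells also differed from PBS, and others did not. The samples are pools of whole retina, in which fewer cells of a type and less RNA per cell cannot be told apart. All 8 rod markers listed were clear of background in Cy5 and Cy3 on all 6 arrays, as the retina label would have it, with 2 higher, 0 lower and a median of 0.14 at 10PTC and -0.019 at PTC. Of all genes, 14.4% were higher and 13.3% lower at 10PTC, and 16.9% and 16.3% at PTC. A count near these shares, in this list or those below, is no result about a cell type. All 8 microglia and macrophage markers were higher at both doses, with medians of 1.10 at 10PTC and 1.36 at PTC. Their summed signal was 21144 to 24645 in 10PTC retina and 14569 to 29110 in PTC retina, against 8371 to 12052 in PBS retina. Such sums, here and below, are of single channels and are not balanced between arrays. PTC arrays 1 and 2, on their own slide, were dimmer. Their median Cy5 signals were 188 and 187, against 287 to 347 on the other arrays. The ranges of the 2 doses are therefore no comparison of dose, and 0 of 26134 genes differed between the doses by limma. All 6 reactive glia markers were higher as well (medians 2.21 and 2.08). PTC array 1 was highest and PTC array 2 lowest for their median, as for Abca1 and for the median of the microglia and macrophage markers. The same arrays were the extremes of the synthesis median, in the other direction, so this order is not particular to Abca1 and glia. Of 7 Müller glia markers, 2 were higher and 2 lower at each dose.

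Ganglion cell markers were lower for 6 of 8 genes at each dose (medians -0.40 and -0.48), and their summed signal was 46495 to 57171 in 10PTC retina and 34118 to 50344 in PTC retina, against 59761 to 74067 in PBS retina. Of 6 bipolar cell markers, 2 were lower at 10PTC and 3 at PTC (medians -0.26 and -0.37), with a summed signal of 88414 to 91861 in 10PTC retina and 58944 to 82422 in PTC retina, against 92513 to 116364 in PBS retina. Of 6 amacrine cell markers, 3 were lower at 10PTC and 4 at PTC (medians -0.22 and -0.34), with a summed signal of 43783 to 47367 in 10PTC retina and 30056 to 41146 in PTC retina, against 38821 to 51715 in PBS retina. Of 5 cone markers, 2 were lower at each dose (medians -0.16 and -0.16), and none of the bipolar, amacrine and cone markers passed as higher. Both red blood cell markers measured were lower at each dose (medians -1.26 and -1.41). Of 6 pigment epithelium markers, 2 were higher and 1 lower at 10PTC, and 3 higher and 0 lower at PTC (medians 0.13 and 0.33). Of 5 endothelium markers 1 was lower at PTC, and of 4 lens markers 1 was higher at PTC, with 0 passing at 10PTC in both lists. Beside the shares of all genes given above, these 2 counts are no result about those cells.

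Skeletal muscle genes, which are foreign to retina, were detected for 8 of 8 markers in every sample and lower at both doses (medians -2.50 and -3.16). Their summed signal was 9472 to 12895 in 10PTC retina and 3857 to 7495 in PTC retina, against 52765 to 70094 in PBS retina. Of 6 fat markers, whose tissue is rich in Scd1 and Fasn, 4 were lower at 10PTC and 5 at PTC (medians -1.28 and -1.14), and 4 of the 6 were clear of background in Cy5 and Cy3 throughout. The 9 myelin markers, from cells that make much cholesterol, had medians of -0.029 at 10PTC and 0.017 at PTC. Of these, 1 was higher and 0 lower at 10PTC, and 1 higher and 1 lower at PTC, no more than the shares of all genes. No marker list had a summed signal of 0 in either channel of any array. The part of these cells in the results for sterol genes was not tested.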

How the data were processed

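Retinal RNA was hybridised to 6 Agilent 2-colour mouse genome arrays, with PBS RNA in Cy3 and treated RNA in Cy5, per the labels. The deposited intensity values and log10 ratios come from Feature Extraction 10.7.3.1, per the file headers (9.3.2.1 in the submitters' processing notes). The authors deposited log2 ratios as well, which matched the log10 ratios of each array (r of 0.983 to 1.00, slope 3.32) and thus have Cy5 on top. The medians of these columns were -0.075 to 0.039; how they were centred is otherwise unknown.

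Mean signals were background-corrected by normexp with an offset of 50 and normalized by loess with control spots at weight 0 (limma 3.58.1 in R 4.3.3, with data.table at version 1.17.8). Outlier spots were dropped and the spots of each probe averaged. Of 39429 probes, 6939 not well above background on at least 3 arrays were left out, and each gene was read by its brightest probe. The limma model had 1 coefficient per dose over all 6 arrays, with Benjamini-Hochberg adjustment over 26134 genes and a threshold of 0.05; intervals are 95% intervals of this fit. Median signals were 187 to 347 (Cy5) and 153 to 221 (Cy3) over backgrounds of 47 to 48 and 26 to 29, and the number of arrays limits the precision. The labels do not say how many PBS pools were used, and p-values measure the spread between arrays. On simulated data for PTC against PBS (26128 genes), 61% of changes of 1.25-fold, 99% of 1.5-fold and 100% of 2-fold were recovered, with 15 false calls. The simulated noise was independent between genes and arrays, and only a small part of the genes was changed. It held no slide, dye or array-wide effect and no spread of PBS pools, so these rates need not hold for the real arrays.

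Members and lists were chosen with earlier results of these data known. Members that passed at either dose, those whose probes differ in sign and each Srebf2 probe are given array by array. Of the other lists, genes that passed at both doses are named, at most 4 per list by p at PTC. Some genes that meet this rule are not reported here.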

Additional observations from a re-analysis of the deposited data

How the results depend on the processing

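The alternatives were the scanner's processed signals, no background subtraction, a normexp offset of 0, median centring, scaling between arrays, 2 other probe filters, outlier spots kept, the mean of a gene's probes or every probe alone, the authors' values, each dose alone, array weights, slide, replicate block, robust moderation and leaving out each array. All kept the synthesis median below 0 except median centring at 10PTC (0.0117). With an array left out it ran from -0.23 to -0.15 at 10PTC and from -0.33 to -0.14 at PTC. Counts of all genes called at 10PTC (7231) became 4440 with processed signals, 14634 with median centring, 4579 with the authors' values, 14033 with array weights and 1009 with the slide as a block, and 1360 to 9121 with an array left out (1360 without 10PTC array 1, 1566 without array 3). At PTC (8656) they became 4608 with each dose alone, 14717 with array weights, 289 and 1715 within the slides of 2 and 4 arrays, and 5004 to 7862 with an array left out (5004 without PTC array 3). Between the doses, array weights called 364 genes, and leaving out an array 0 to 1 (the 1 without PTC array 3). Members called fell to 3 at 10PTC with the slide as a block, ran from 5 to 22 there and from 16 to 23 at PTC with an array left out, and were 0 and 7 at PTC within the slides of 2 and 4 arrays. In each of these the cause was not tested. The fits with an array left out, within a slide or for each dose alone had fewer arrays. With the slide as a block, the slide effect came from PTC arrays alone, which adds error to the 10PTC values.

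The deviations of same-numbered arrays from their dose means had r = -0.27, 0.15 and 0.20 for numbers 1 to 3. The labels do not say whether the numbers pair pools, and so few arrays cannot settle it. The main fit used no pairing. With the replicate block, 18 members were called at 10PTC and 20 at PTC, as without it, and Abca1 stayed at 1.03 and 1.17. Of the single genes that changed sign, Nr1h2 had passed at both doses and Fasn at PTC, and the others at neither. Median centring turned Nr1h2 (0.019), Acat2 (0.10), Fdft1 (0.027), Lss (0.027), Tm7sf2 (0.083), Nsdhl (0.079), Srebf1 (0.035), Fasn (0.0027) and Abcg1 (0.12) at 10PTC, and Acat2 (0.018), Lss (0.0093), Nsdhl (0.046), Scap (0.17, adjusted p = 0.0213), Abcg1 (0.069) and Nr1h3 (0.10) at PTC; only Scap then passed. The processed signals turned Cyp51 at PTC (-0.022), no background subtraction turned it too (-0.011), and an offset of 0 turned Sc5d at 10PTC (-0.0020). The authors' values turned Cyp51 (-0.0017) and Scap (0.0086) at PTC and Acat2 (0.013) at 10PTC. Array weights turned Cyp51 (-0.0038), Sc5d (-0.063), Acaca (-0.0011) and Scd2 (-0.0010) at PTC and Sc5d (-0.0078) and Nr1h3 (-0.038) at 10PTC. The slide as a block turned Sc5d at PTC (-0.0091) and Lss (0.028) and Nsdhl (0.0041) at 10PTC. Within slides, Scap (0.00050), Cyp51 (-0.013), Sc5d (-0.088), Acaca (-0.011) and Scd2 (-0.0073) turned at PTC. With an array left out, Acat2 (-0.036 to 0.037), Nr1h3 (-0.041 to 0.094), Nsdhl (-0.088 to 0.031) and Sc5d (-0.020 to 0.017) crossed 0 at 10PTC, and Cyp51 (-0.035 to 0.060), Nr1h3 (-0.20 to 0.079), Sc5d (-0.052 to 0.070) and Scap (-0.059 to 0.00050) at PTC. Signal over background limits the dimmest probes; the probes used here were above it on all arrays.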
